A study of Bos taurus with 15 samples.

Results

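The genes described here encode the translation initiation and elongation factors of bovine blastocysts, together with the kinases, binding proteins and modifying enzymes that carry the same symbol prefixes. Members were the genes of the filtered count table whose bovine symbol begins with EIF1 to EIF6, EEF1 or EEF2, whatever their values, and 59 of the 10832 genes met this rule. Of these, 47 were grouped by symbol as initiation or elongation factors, EIF4A3 of the exon junction complex among them. The other 12 were 4 eIF2 kinases, 3 eIF4E-binding proteins, 3 modifiers of elongation factors, EEF1E1 and EIF1AD. They were compared between pools of bovine embryos produced and cultured in vitro without oviductal extracellular vesicles (Co), with fresh vesicles (FeEV) or with frozen vesicles (FoEV), with 5 libraries per treatment. The culture lasted 7 days by the sample labels and 1 day longer by the methods of the study, and all embryos were taken as blastocysts. The vesicles (oEVs) came from the oviducts of postovulatory cows collected at slaughter. Each library was made from 1 ng of total RNA of an embryo pool, and pools were chosen for RNA quality. A library averages over the cells and embryos of its pool. The labels do not say whether pools came from separate rounds of culture, and p-values measure only the spread between these pools.

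As background, translation of most mRNAs starts when the cap-binding complex eIF4F (the cap-binding protein eIF4E, the scaffold eIF4G and the RNA helicase eIF4A) brings the mRNA to the small ribosomal subunit. That subunit carries eIF1, eIF1A, the large complex eIF3 and the ternary complex of eIF2, GTP and initiator tRNA. After start codon selection eIF5 and eIF5B allow the subunits to join, eIF2B recharges eIF2 with GTP, and eEF1 and eEF2 drive elongation. Kinases that phosphorylate the alpha subunit of eIF2 block its recharging by eIF2B under stress, and the 4E-BPs sequester eIF4E when mTOR activity is low. Much of this control acts on the proteins, which were not measured here. In the early embryo, translation first runs on stored maternal mRNAs and later on transcripts of the embryonic genome.

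The deposited counts summed to 2571558 to 2977004 reads per library in Co, 2136713 to 3808602 in FeEV and 3392613 to 4058887 in FoEV, so that every FoEV library was deeper than every Co library. With all libraries thinned to the smallest total there were 8 higher and 6 lower members in FoEV vs. Co at an unadjusted p under 0.05, against 11 and 7 at full depth. Of all genes, 14.1% passed this threshold when thinned and 15.1% at full depth. All 7 trophectoderm markers were detected, and their summed level ranged from 6155 to 8039 CPM in Co, 6513 to 10012 in FeEV and 7855 to 11908 in FoEV. The 4 inner cell mass markers summed to 257 to 317, 242 to 314 and 218 to 321 CPM, and the 4 hypoblast markers to 515 to 780, 493 to 666 and 503 to 639 CPM. The 4 markers of oviduct epithelium summed to 16.8 to 32.4, 12.3 to 17.3 and 14.0 to 35.5 CPM and the 4 markers of cumulus cells to 8.96 to 15.2, 5.58 to 12.7 and 7.93 to 12.6 CPM, with no marker at 0 in all libraries. The oviduct reads were mostly of MUC16 (555 over all libraries) and PAX8 (396), with 32 of OVGP1 and 13 of FOXJ1. The cumulus reads were mostly of FSHR (407), with 67 of HAS2, 13 of TNFAIP6 and 1 of PTX3. The trophectoderm sum had its highest values in FoEV, with overlap between treatments, and its part in the results was not tested. Most of its reads were of KRT8 (227367 over all libraries) and KRT18 (159253), against 10721 for GATA3, the next of the 7 markers. It is therefore mainly a level of keratin mRNA, and the study lists KRT18 among the genes higher in FoEV than in Co. In pooled embryos, fewer cells of a type and less RNA per cell cannot be told apart.

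Reads of members made up 1.496% ± 0.154 of a Co library, 1.52% ± 0.109 of a FeEV library and 1.46% ± 0.0903 of a FoEV library (SD, n = 5 each), and these shares overlapped between the treatments. Levels are given in CPM, the count of a gene relative to the TMM-scaled total of its library. Marker sums and levels of genes outside the filtered table are instead relative to the unscaled total before filtering. After ±, levels carry the SD over 5 pools and log2 fold changes the standard error (SE) of the fit. CPM is not corrected for transcript length, so levels can be compared between libraries but not between genes. The lowest count of any member in any library was 10, for EEF2KMT. The coefficient of variation over the 5 pools had a median over members of 10.7% for Co, 9.62% for FeEV and 12.1% for FoEV. The steadiest members were EIF3B in Co (2.98%), EIF4E in FeEV (2.20%) and EIF1 in FoEV (2.65%). The widest spread was that of EEF2KMT in Co (47.6%), where counts were low, and of EIF2AK2 in FeEV (36.4%) and FoEV (48.05%).

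FoEV treatment vs. Co gave differences of less than 1 on the log2 scale, and none passed the adjusted threshold. Members past the unadjusted threshold lay in both directions in 3 of the 14 complexes or groups, eIF3, eIF4F and the group of eIF5, eIF5A, eIF5B and eIF6. With the quasi-likelihood test of edgeR over all 10832 genes, 0 of the 59 members had an adjusted p under 0.05, where 0.00923% of all genes (1 gene) did. At an unadjusted p under 0.05, 18 members (30.5%) differed, against 15.1% of all genes. Of these, 11 (18.6%, against 8.18% of all genes) were higher in FoEV, namely EEF1D, EEF1G, EEF2KMT, EIF2B4, EIF2D, EIF3G, EIF3I, EIF3K, EIF4A3, EIF4G1 and EIF6. The 7 that were lower (11.9%, against 6.88%) were EIF2AK3, EIF2S1, EIF3M, EIF4A2, EIF4E, EIF4G2 and EIF5. Scaling by DESeq2 size factors in place of TMM gave 8 higher and 8 lower members, where 15.2% of all genes were called in either direction. The median log2 fold change was 0.07 over members and 0.01 over all genes, and 33 members (55.9%, against 52.3% of all genes) had a value above 0. Without regard to sign, the median log2 fold change was 0.148 over members and 0.162 over all genes. The median SE was smaller for members (0.103) than for all genes (0.161), and the shares of called genes were not matched for it.

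**Figure D1:**
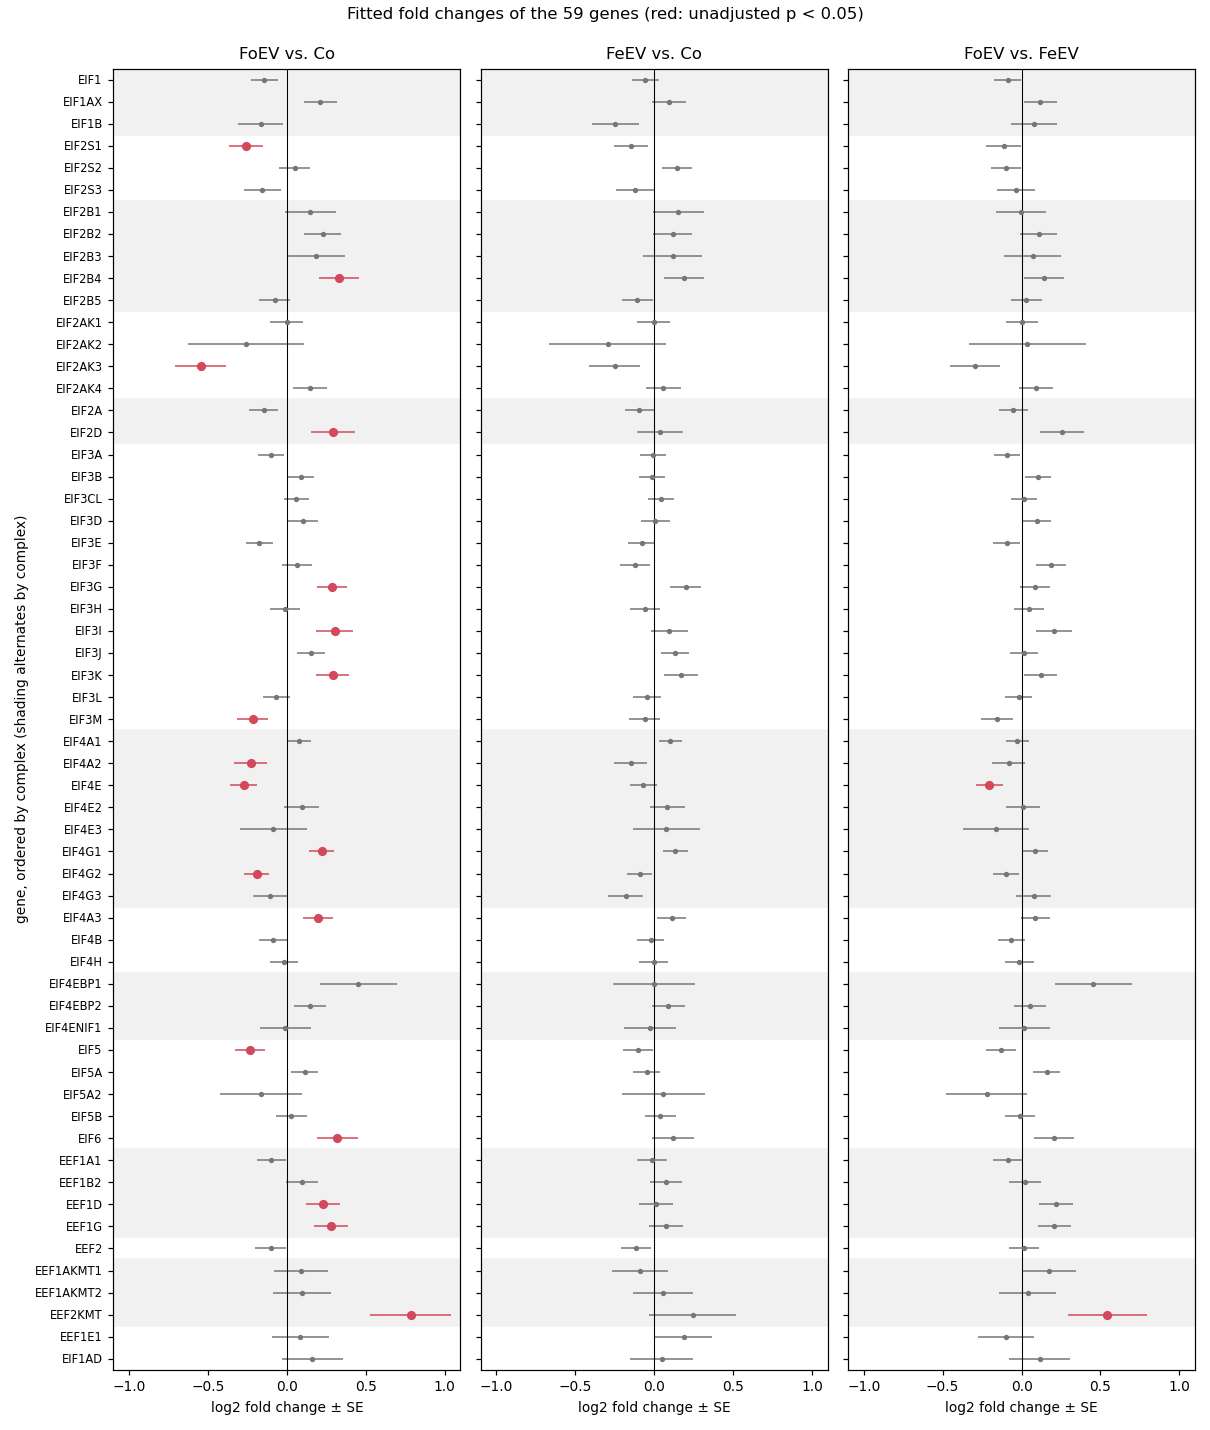
Log2 fold change of each of the 59 genes (vertical axis, ordered by complex) in the 3 comparisons, with bars for the standard error of the edgeR fit. FoEV vs. Co holds 18 genes past the unadjusted threshold of 0.05, FeEV vs. Co holds 0 and FoEV vs. FeEV holds 2.

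FeEV treatment vs. Co left every member short of both thresholds. By the edgeR test 0 members had an adjusted p under 0.05 (0 of all genes), and at the unadjusted threshold of 0.05 there were also 0 (4.15% of all genes, 1.83% higher and 2.32% lower). No member was without overlap, against 0.535% of all genes higher and 0.415% lower, and 30 members had a log2 fold change above 0 (50.8%, against 51% of all genes). At the unadjusted threshold the likelihood ratio test with robust dispersion gave 1, EIF3G (6.13% of all genes), and the Wald test of DESeq2 gave 0 (3.79%). The log2 fold changes ran from -0.30 for EIF2AK2 to 0.24 for EEF2KMT. The smallest p was that of EIF3G, with 0.20 ± 0.10. FoEV and FeEV, which received vesicles of the same oviducts after freezing or fresh, differed at an unadjusted p under 0.05 for 1 higher member (EEF2KMT, against 4.83% of all genes called higher) and 1 lower member (EIF4E, against 3.69%), together 3.39% of members and 8.52% of all genes, and at the adjusted threshold for 0 members and 0 genes. By edgeR, 36 members had a value above 0 there (61%, against 51.8% of all genes), 0 were higher without overlap (0.757% of all genes) and 1, EIF4E, was lower without overlap (0.748%). FoEV vs. Co and FeEV vs. Co share the Co libraries, and their values are therefore set side by side below without a test across them. No interaction can be formed from 3 treatments, and FoEV vs. FeEV is the direct comparison of the vesicle treatments.

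**Figure D2:**
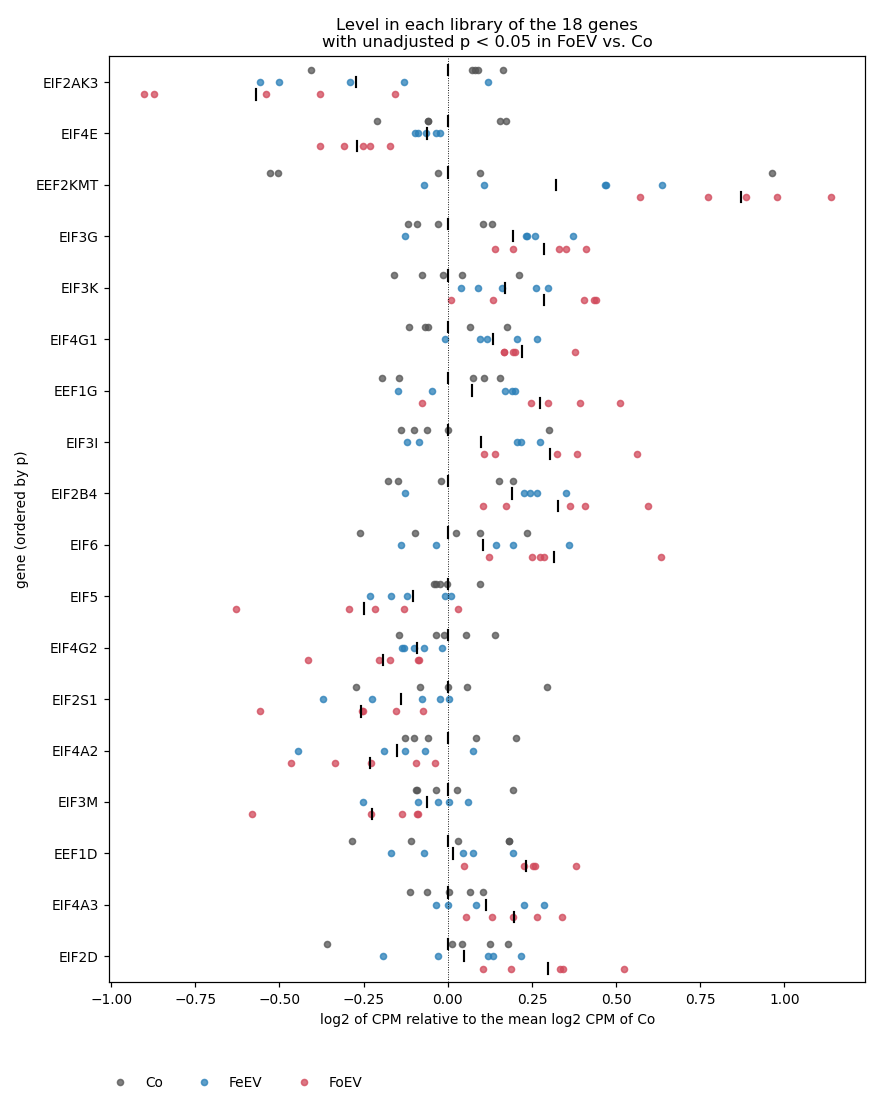
Level in each library of the 18 genes past the unadjusted threshold of 0.05 in FoEV vs. Co, as log2 CPM relative to the mean log2 CPM of Co, with 1 point per library and a bar at the treatment mean. FoEV points lie on both sides of the Co mean depending on the gene, and EIF3G is the gene among them with no overlap between FoEV and Co.

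Within eIF4F, the cap-binding subunit and the scaffold differed in opposite directions in FoEV. EIF4E was at 124, 160.3, 162, 138 and 138 CPM in Co replicates 1 to 5. It was at 135, 141, 140.4, 138 and 135 CPM in FeEV and at 121, 123, 128, 111 and 116 CPM in FoEV, in the same order. FoEV lay between 111 and 128 CPM, below every FeEV library and below 4 of the 5 Co libraries, and Co replicate 1 fell inside the FoEV range. The mean levels of EIF4E were 145 ± 16.2 CPM in Co, 138 ± 3.03 CPM in FeEV and 119.6 ± 6.58 CPM in FoEV (SD, n = 5 each). FoEV vs. Co gave a log2 fold change of -0.27 ± 0.086 (SE, edgeR adjusted p = 0.159). FoEV vs. FeEV gave a log2 fold change of -0.20 ± 0.086 (SE, edgeR adjusted p = 0.539), and the groups did not overlap. Both differences passed the unadjusted threshold, and the one against FeEV missed it without FoEV replicate 4 (-0.18) or 5 (-0.19) and with thinned counts (-0.16). FeEV libraries were the most uniform of the treatments for this gene, at 135 to 141 CPM, and FeEV vs. Co gave -0.07 ± 0.086.

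EIF4G1 was at 594, 484, 504, 501 and 550.3 CPM in Co replicates 1 to 5. It was at 522, 569, 606, 561 and 630.5 CPM in FeEV and at 589.5, 601, 603, 683 and 590.2 CPM in FoEV, in the same order. EIF4G1 encodes the main scaffold that joins eIF4E, eIF4A and eIF3. Co replicate 1 again stood with FoEV, while the other 4 Co libraries were below every FoEV library, and FoEV replicate 4 was well above the rest of its group. The mean levels of EIF4G1 were 527 ± 44.7 CPM in Co, 578 ± 41.9 CPM in FeEV and 613 ± 39.3 CPM in FoEV (SD, n = 5 each). The log2 fold change of 0.22 ± 0.081 (SE, edgeR adjusted p = 0.212) in FoEV vs. Co had FeEV between the other treatments, with 0.13 ± 0.081 in FeEV vs. Co. EIF4G2 was lower in FoEV (911 ± 80.99 CPM) than in Co (1040.2 ± 76.1 CPM, SD, n = 5 each), with a log2 fold change of -0.19 ± 0.08 (SE, edgeR adjusted p = 0.257). EIF4G2 (DAP5) lacks the eIF4E-binding site and acts in cap-independent initiation. It missed the unadjusted threshold without Co replicate 2 (-0.16) or FoEV replicate 1 (-0.14).

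Of the helicase paralogues, EIF4A2 and EIF4A3 passed the unadjusted threshold in FoEV vs. Co. EIF4A2 was lower in FoEV (140.4 ± 16.7 CPM) than in Co (165 ± 16.2 CPM, SD, n = 5 each), with a log2 fold change of -0.23 ± 0.10 (SE, edgeR adjusted p = 0.303), and it missed the unadjusted threshold in 4 of the 10 fits with a library left out (-0.17 without Co replicate 3). EIF4A1 was at 730.0 ± 40.8 CPM in Co, 784 ± 45.9 CPM in FeEV and 769 ± 44.1 CPM in FoEV, with 0.076 ± 0.075 in FoEV vs. Co. EIF4A3 was higher in FoEV (90.1 ± 6.97 CPM) than in Co (78.6 ± 4.81 CPM, SD, n = 5 each), with a log2 fold change of 0.20 ± 0.093 (SE, edgeR adjusted p = 0.316). EIF4A3 is a helicase of the exon junction complex rather than of eIF4F, and it missed the unadjusted threshold in 6 of the 10 fits with a library left out (0.16 without FoEV replicate 1). EIF4A3 missed it in 11 of the 19 alternatives, among them DESeq2, DESeq2 size factors and no filter. The remaining eIF4F members did not pass the test in any comparison, with log2 fold changes in FoEV vs. Co of 0.093 for EIF4E2, a cap-binding homologue of eIF4E that represses translation, -0.086 for EIF4E3 and -0.11 for EIF4G3. EIF4E3 was at 19.2 ± 6.03 CPM in Co, 19.9 ± 5.09 CPM in FeEV and 17.98 ± 3.83 CPM in FoEV. The helicase cofactors EIF4B (449.8 ± 45.3, 443 ± 16.4 and 423 ± 42.4 CPM in Co, FeEV and FoEV) and EIF4H (266 ± 17.7, 265 ± 27.1 and 262 ± 25.6 CPM) did not pass it either.

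Of the proteins that hold eIF4E away from eIF4G, EIF4EBP1 was at 16.04, 7.76, 9.35, 5.62 and 13.5 CPM in Co replicates 1 to 5. It was at 11.03, 8.91, 12.2, 7.29 and 12.01 CPM in FeEV and at 12.3, 15.1, 11.6, 21.03 and 11.99 CPM in FoEV. The FoEV range of 11.6 to 21.03 CPM overlapped that of Co, 5.62 to 16.04 CPM, and the log2 fold change of 0.45 ± 0.24 did not pass the test. EIF4EBP2 was at 78.8 ± 3.88 CPM in Co, 83.98 ± 5.46 CPM in FeEV and 87.3 ± 13.1 CPM in FoEV and EIF4ENIF1, which carries eIF4E into the nucleus, at 34.5 ± 6.16 CPM in Co, 33.8 ± 7.45 CPM in FeEV and 34.4 ± 6.09 CPM in FoEV. EIF4EBP3 and EIF4E1B, the oocyte form of eIF4E, did not reach the filtered table, with 125 and 96 reads over the 15 libraries. The 30 reads in 1 FeEV library were the highest count of EIF4E1B in any library.

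**Figure D3:**
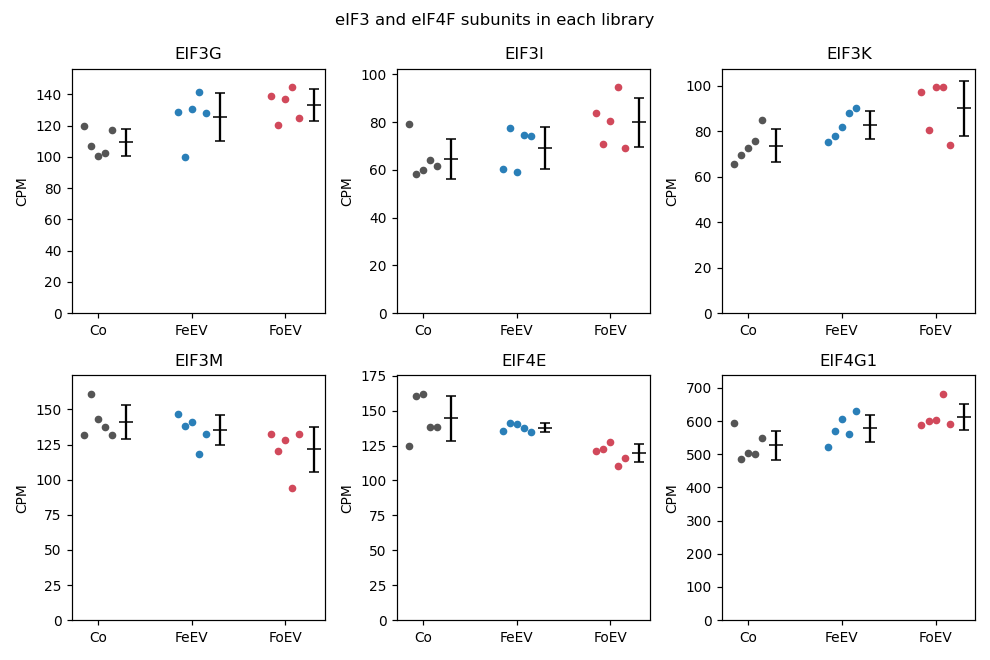
CPM in each library (points) with mean and SD (bars) of 4 eIF3 subunits, EIF4E and EIF4G1 in Co, FeEV and FoEV. EIF3G, EIF3I, EIF3K and EIF4G1 have higher means in FoEV than in Co, and EIF3M and EIF4E have lower means.

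On the eIF2 side, the gene with the smallest p of all members was EIF2AK3, which encodes PERK, the eIF2 kinase of the endoplasmic reticulum stress response. EIF2AK3 was at 44.1, 29.7, 41.6, 41.3 and 41.9 CPM in Co replicates 1 to 5. It was at 32.2, 26.7, 35.97, 27.8 and 42.7 CPM in FeEV and at 27.1, 35.3, 21.5, 21.03 and 30.3 CPM in FoEV, in the same order. FoEV held the lowest values, Co replicate 2 lay among them at 29.7 CPM, and the other 4 Co libraries were above every FoEV library. The mean levels of EIF2AK3 were 39.7 ± 5.72 CPM in Co, 33.1 ± 6.53 CPM in FeEV and 27.04 ± 6.04 CPM in FoEV (SD, n = 5 each). FoEV vs. Co gave a log2 fold change of -0.55 ± 0.16 (SE, edgeR adjusted p = 0.143). FeEV lay between, at -0.25 ± 0.16 against Co, and FoEV vs. FeEV gave -0.30 ± 0.16. The adjusted p of FoEV vs. Co was under 0.05 with the robust likelihood ratio test (0.0233) and on the unfiltered table (0.0358), and it ranged from 0.0233 to 0.33 over the 19 alternatives. The study, whose methods name the robust approach, lists EIF2AK3 as lower in FoEV than in Co.

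The other kinases did not pass the test. EIF2AK1 (the heme-regulated kinase HRI) was at 46.3 ± 2.59 CPM in Co, 46.1 ± 5.45 CPM in FeEV and 46.3 ± 2.66 CPM in FoEV, and EIF2AK4 (GCN2, which senses uncharged tRNA) at 75.1 ± 6.15 CPM in Co, 78.3 ± 9.16 CPM in FeEV and 83.3 ± 10.9 CPM in FoEV. EIF2AK2 (PKR, the kinase activated by double-stranded RNA and induced by interferon) was at 35.7, 16.2, 34.5, 32.1 and 35.3 CPM in Co, 33.4, 11.1, 26.3, 20.95 and 31.6 in FeEV and 37.7, 27.5, 20.4, 7.01 and 33.8 in FoEV. Pools of low value were replicate 2 in Co and FeEV and replicate 4 in FoEV, and its standard error of 0.37 exceeded the log2 fold change of -0.26 in FoEV vs. Co.

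Among the eIF2 subunits, EIF2S1 was lower in FoEV (138 ± 16.7 CPM) than in Co (165 ± 23.99 CPM, SD, n = 5 each), with a log2 fold change of -0.26 ± 0.11 (SE, edgeR adjusted p = 0.259). EIF2S1 encodes the alpha subunit that the kinases phosphorylate. It missed the unadjusted threshold without Co replicate 2 (-0.18) or FoEV replicate 4 (-0.19). The beta subunit gene EIF2S2 was at 256 ± 23.7 CPM in Co, 284 ± 13.3 CPM in FeEV and 265 ± 38.4 CPM in FoEV and the gamma subunit gene EIF2S3 at 174 ± 28.8 CPM in Co, 160.3 ± 11.6 CPM in FeEV and 156 ± 27.5 CPM in FoEV, and neither passed the test. Of the 5 genes of eIF2B, the exchange factor that reloads eIF2, 4 had a log2 fold change above 0 in FoEV vs. Co (52.3% of all genes) and 1 passed the unadjusted threshold (15.1% of all genes). EIF2B4 was higher in FoEV (41.1 ± 5.62 CPM) than in Co (32.6 ± 3.84 CPM, SD, n = 5 each), with a log2 fold change of 0.33 ± 0.13 (SE, edgeR adjusted p = 0.225). EIF2B4 encodes the delta subunit. It missed the unadjusted threshold without FoEV replicate 3 (0.25). EIF2B2 reached 0.23 ± 0.12, EIF2B1 0.15 ± 0.16 and EIF2B3 0.19 ± 0.18, while EIF2B5, the catalytic epsilon subunit, was at 64.00 ± 4.36 CPM in Co, 59.2 ± 5.60 CPM in FeEV and 60.7 ± 4.69 CPM in FoEV. Of the proteins that deliver tRNA without eIF2, EIF2D was higher in FoEV (24.1 ± 2.72 CPM) than in Co (19.6 ± 2.67 CPM, SD, n = 5 each), with a log2 fold change of 0.29 ± 0.14 (SE, edgeR adjusted p = 0.33). It missed the unadjusted threshold in 6 of the 10 fits with a library left out (0.22 without Co replicate 5) and with thinned counts (0.24). EIF2D missed it in 13 of the 19 alternatives, among them DESeq2, DESeq2 size factors and the other filters. EIF2A was at 137 ± 10.7 CPM in Co, 129 ± 7.03 CPM in FeEV and 124 ± 14.4 CPM in FoEV, with -0.15 ± 0.091.

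**Figure D4:**
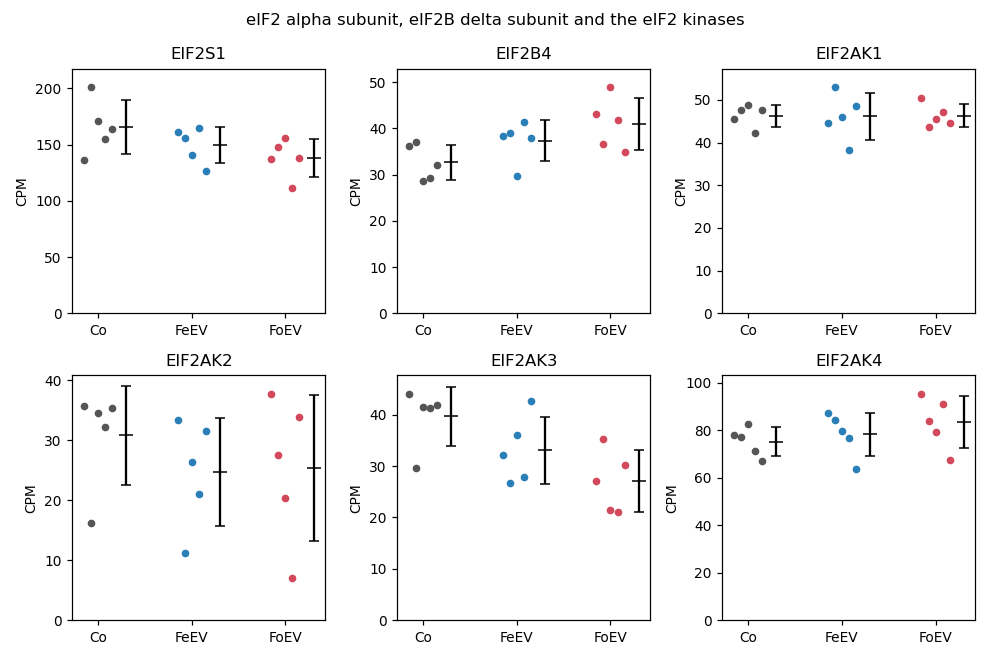
CPM in each library (points) with mean and SD (bars) of genes of eIF2, its kinases and eIF2B in Co, FeEV and FoEV. EIF2AK3 spans 29.7 to 44.1 CPM in Co and 21.0 to 35.3 CPM in FoEV, while EIF2AK2 spreads widely within each treatment.

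Of the 13 genes of eIF3, which bridges the mRNA complex and the small ribosomal subunit, 8 had a log2 fold change above 0 in FoEV vs. Co (52.3% of all genes). At an unadjusted p under 0.05, 3 were higher (8.18% of all genes) and 1 lower (6.88%). EIF3G was at 119.6, 107, 101, 102 and 117 CPM in Co replicates 1 to 5. It was at 128, 99.9, 130.4, 141 and 128 CPM in FeEV and at 139, 120.3, 137, 145 and 125 CPM in FoEV, in the same order. EIF3G was the only member whose 5 FoEV libraries were all above the 5 Co libraries, as for 1.26% of all genes, although the highest Co library (119.6 CPM) and the lowest FoEV library (120.3 CPM) were nearly equal. The mean levels of EIF3G were 109 ± 8.66 CPM in Co, 126 ± 15.3 CPM in FeEV and 133 ± 10.3 CPM in FoEV (SD, n = 5 each). FoEV vs. Co gave a log2 fold change of 0.29 ± 0.10 (SE, edgeR adjusted p = 0.179), and FeEV vs. Co gave a log2 fold change of 0.20 ± 0.10 (SE, edgeR adjusted p = 1). EIF3G binds RNA within eIF3, beside EIF3I and EIF3B.

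EIF3K was higher in FoEV (90.01 ± 11.98 CPM) than in Co (73.6 ± 7.31 CPM, SD, n = 5 each), with a log2 fold change of 0.29 ± 0.10 (SE, edgeR adjusted p = 0.201). EIF3K was at 73.9 to 99.5 CPM in FoEV against 65.6 to 84.9 CPM in Co, and it passed the unadjusted threshold in all 10 fits with a library left out but missed it with a block by the number of the sample description (0.23). EIF3I was higher in FoEV (79.8 ± 10.4 CPM) than in Co (64.6 ± 8.37 CPM, SD, n = 5 each), with a log2 fold change of 0.30 ± 0.12 (SE, edgeR adjusted p = 0.222). The highest Co library of EIF3I, at 79.1 CPM, overlapped FoEV, and it missed the unadjusted threshold without FoEV replicate 4 (0.24). EIF3M was lower in FoEV (121 ± 16.1 CPM) than in Co (141 ± 12.1 CPM, SD, n = 5 each), with a log2 fold change of -0.22 ± 0.10 (SE, edgeR adjusted p = 0.304). EIF3M missed the threshold in 4 of the 10 such fits (-0.16 without Co replicate 2), FoEV replicate 4 being the lowest library at 94.1 CPM, and also with thinned counts (-0.21). It also missed it with the robust likelihood ratio test (-0.19) and in the fit of the compared groups alone (-0.22).

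EIF3E was at 233 ± 19.6 CPM in Co, 220.3 ± 9.49 CPM in FeEV and 206 ± 22.1 CPM in FoEV, and its log2 fold change of -0.17 ± 0.087 in FoEV vs. Co missed the threshold. EIF3A, the largest subunit and the scaffold of the complex, was at 627 ± 47.7 CPM in Co, 625 ± 34.3 CPM in FeEV and 586 ± 52.6 CPM in FoEV, with -0.10 ± 0.082. EIF3J, loosely bound to eIF3, gave 0.15 ± 0.089, and the log2 fold changes of EIF3B, EIF3CL, EIF3D, EIF3F, EIF3H and EIF3L lay between -0.067 and 0.10. EIF3CL is the record whose RefSeq synonym is EIF3C, and no second EIF3C gene was among the members. In FoEV vs. FeEV none of the 13 passed the test, and EIF3F had the smallest p (0.19 ± 0.095).

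EIF1 keeps the scanning ribosome open until a start codon is met. EIF1 was at 176, 171, 191, 187 and 165 CPM in Co replicates 1 to 5. It was at 191, 147, 181, 183 and 154 CPM in FeEV and at 164, 163, 162, 164 and 154 CPM in FoEV, in the same order. The FoEV values were 154 to 164 CPM and lay below the 165 to 191 CPM of Co without overlap (1.35% of all genes in this direction). FeEV covered both ranges. The log2 fold change of -0.14 ± 0.086 in FoEV vs. Co did not pass the test, and EIF1 is the only member without overlap that was lower in FoEV. EIF1AX, which occupies the vacant tRNA site beside eIF1, was at 127 ± 21.3 CPM in Co, 136 ± 4.97 CPM in FeEV and 147 ± 17.2 CPM in FoEV, with 0.21 ± 0.11, and EIF1B at 31.7 ± 3.71 CPM in Co, 26.6 ± 4.20 CPM in FeEV and 28.3 ± 5.09 CPM in FoEV, with -0.17 ± 0.15.

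EIF5 was lower in FoEV (508 ± 82.1 CPM) than in Co (597 ± 23.8 CPM, SD, n = 5 each), with a log2 fold change of -0.23 ± 0.10 (SE, edgeR adjusted p = 0.257). EIF5 activates GTP hydrolysis by eIF2. Its 5 Co libraries spanned 580.3 to 638 CPM and its FoEV libraries 386 to 609 CPM, and it missed the unadjusted threshold without FoEV replicate 4, the lowest (-0.15), or Co replicate 3, the highest (-0.21). EIF6 was higher in FoEV (41.5 ± 5.81 CPM) than in Co (33.3 ± 4.30 CPM, SD, n = 5 each), with a log2 fold change of 0.32 ± 0.13 (SE, edgeR adjusted p = 0.24). EIF6 keeps the large ribosomal subunit from joining too early. It missed the threshold without FoEV replicate 1, its highest library (0.23), or Co replicate 2 (0.26). It also missed it with all libraries thinned to the smallest total, where the log2 fold change was 0.20, and with a block by the number of the sample description (0.30). EIF5A, the hypusine-carrying factor that helps stalled ribosomes, was at 412 ± 22.1 CPM in Co, 399 ± 16.4 CPM in FeEV and 446 ± 56.2 CPM in FoEV. EIF5B, the GTPase of subunit joining, was at 225 ± 26.1 CPM in Co, 231 ± 16.8 CPM in FeEV and 229 ± 27.7 CPM in FoEV, and EIF5A2 at 5.72 ± 1.36 CPM in Co, 5.95 ± 1.07 CPM in FeEV and 5.13 ± 1.52 CPM in FoEV. None of these passed the test in any comparison, the smallest p being that of EIF5A in FoEV vs. FeEV (0.16 ± 0.085).

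Among the elongation factors, EEF1G and EEF1D, which encode subunits of the eEF1B exchange complex, passed the unadjusted threshold in FoEV vs. Co. EEF1G was at 412, 389, 323, 335 and 398 CPM in Co replicates 1 to 5. It was at 358, 333, 416, 422 and 425 CPM in FeEV and at 439, 351, 528, 485 and 454 CPM in FoEV, in the same order. The 4 highest libraries of the 15 were from FoEV, and FoEV replicate 2 lay within the Co range. EEF1G was higher in FoEV (451 ± 65.7 CPM) than in Co (372 ± 39.9 CPM, SD, n = 5 each), with a log2 fold change of 0.28 ± 0.11 (SE, edgeR adjusted p = 0.219). It missed the unadjusted threshold without FoEV replicate 3 (0.21). EEF1D was higher in FoEV (75.1 ± 6.11 CPM) than in Co (64.1 ± 8.64 CPM, SD, n = 5 each), with a log2 fold change of 0.23 ± 0.11 (SE, edgeR adjusted p = 0.313). EEF1D missed the threshold in 7 of the 10 such fits (0.16 without Co replicate 3). EEF1D also missed it with thinned counts (0.22), DESeq2, DESeq2 size factors, no filter and the fit of the compared groups alone. It missed it in 12 of the 19 alternatives. The third subunit gene, EEF1B2, was at 269 ± 37.8 CPM in Co, 284 ± 12.6 CPM in FeEV and 288 ± 35.8 CPM in FoEV, with 0.10 ± 0.10. EEF1A1, which carries aminoacyl-tRNA to the ribosome, was at 3812 ± 410.1 CPM in Co, 3781 ± 279 CPM in FeEV and 3562 ± 431 CPM in FoEV, with -0.10 ± 0.095. Copies of EEF1A1 with near-identical sequence exist and the handling of reads with several matches is not given in the sources used here, so its level is uncertain. EEF2, the translocase, was at 1645 ± 191 CPM in Co, 1518 ± 169 CPM in FeEV and 1533 ± 154 CPM in FoEV, with -0.10 ± 0.10.

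The member with the largest fold change in FoEV vs. Co was EEF2KMT, a lysine methyltransferase of eEF2, from low counts of 10 to 42 per library. EEF2KMT was at 3.65, 3.71, 5.16, 5.62 and 10.3 CPM in Co replicates 1 to 5. It was at 5.66, 8.17, 5.005, 7.29 and 7.26 CPM in FeEV and at 9.72, 7.82, 11.6, 10.3 and 8.996 CPM in FoEV, in the same order. The 4 lowest Co libraries were below every FoEV library, and Co replicate 5, at 10.3 CPM, was inside the FoEV range. The mean levels of EEF2KMT were 5.68 ± 2.70 CPM in Co, 6.68 ± 1.30 CPM in FeEV and 9.69 ± 1.41 CPM in FoEV (SD, n = 5 each). FoEV vs. Co gave a log2 fold change of 0.78 ± 0.26 (SE, edgeR adjusted p = 0.177), and FoEV vs. FeEV gave a log2 fold change of 0.54 ± 0.25 (SE, edgeR adjusted p = 0.572). The first held at an unadjusted p under 0.05 in all 19 alternatives (adjusted p 0.0132 to 0.338), with log2 fold changes from 0.57 to 1.09, while the other missed the unadjusted threshold in 5 of the 10 fits with a library left out (0.45 without FeEV replicate 3). The eEF1A methyltransferase genes EEF1AKMT1 (14.7 ± 3.63, 13.7 ± 1.76 and 15.6 ± 1.44 CPM in Co, FeEV and FoEV) and EEF1AKMT2 (13.1 ± 1.43, 13.7 ± 3.34 and 14.01 ± 2.74 CPM) did not pass the test. METTL13, which also methylates eEF1A but has another symbol and was not counted as a member, gave a log2 fold change of 0.23 ± 0.11 (SE, edgeR adjusted p = 0.337) in FoEV vs. Co. EEF2K, the kinase that inhibits eEF2, did not reach the filtered table, with 156 reads over the 15 libraries and 1.095 to 7.18 CPM per library. EEF1A2 and EEF1AKMT3 were also outside it, with 31 and 105 reads.

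EEF1E1, a component of the aminoacyl-tRNA synthetase complex, was at 13.5 ± 1.80 CPM in Co, 15.4 ± 3.63 CPM in FeEV and 14.3 ± 1.79 CPM in FoEV, and EIF1AD, which shares the eIF1A fold, at 10.6 ± 0.913 CPM in Co, 11.1 ± 3.27 CPM in FeEV and 11.9 ± 1.42 CPM in FoEV. Neither passed the test in any comparison.

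Sums over each of the 14 complexes or groups overlapped between the treatments. In FoEV vs. Co the difference of the log2 summed CPM ran from -0.10 for eEF2 to 0.24 for the modifiers of elongation factors, and 0 of the 14 sums were without overlap in any of the 3 comparisons. The modifiers summed to 33.4 ± 5.19 CPM (Co), 34.1 ± 2.80 CPM (FeEV) and 39.3 ± 3.03 CPM (FoEV). eIF3 summed to 2584 ± 85.4 CPM in Co, 2591 ± 49.4 in FeEV and 2601 ± 148 in FoEV. This was a log2 difference of 0.0079 in FoEV vs. Co, although 4 of its genes passed the unadjusted threshold. eIF4F summed to 2764 ± 101, 2772 ± 44.1 and 2705 ± 121 CPM, with a log2 difference of -0.031. This sum also holds EIF4E2 and EIF4G2, and EIF4G2 was at 1040.2 CPM in Co and 911 CPM in FoEV. It is therefore not a level of the cap-binding complex alone, and a sum without these genes was not computed. eIF2B summed to 169.6 ± 9.97, 176 ± 9.56 and 185 ± 12.5 CPM, with 0.12, and eEF1, which EEF1A1 dominates in CPM, to 4517 ± 443, 4520.2 ± 332 and 4377 ± 525 CPM, with -0.048 (SD, n = 5 each).

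**Figure D5:**
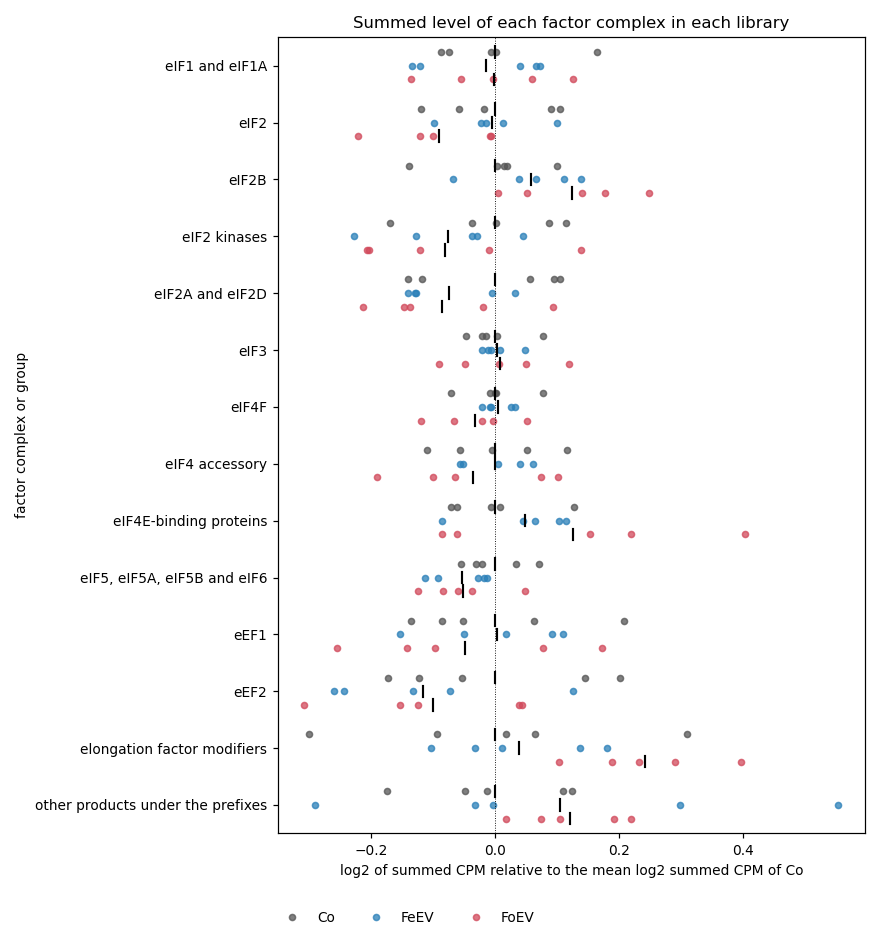
Summed CPM of each factor complex or group in each library, as log2 relative to the mean log2 sum of Co, with 1 point per library and a bar at the treatment mean. FoEV overlaps Co in all 14 rows, and the mean of the modifiers of elongation factors lies farthest from Co, at 0.24.

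mRNAs of many elongation factors carry a 5′ terminal oligopyrimidine (TOP) tract, which places their translation under mTOR. Of 9 members known as TOP mRNAs (EEF1A1, EEF1B2, EEF1D, EEF1G, EEF2, EIF3E, EIF3F, EIF3H and EIF4B), 4 had a log2 fold change above 0 in FoEV vs. Co and 5 below, with a median of -0.014 against 0.08 for the other 50 members and 0.01 for all genes. At an unadjusted p under 0.05, EEF1D and EEF1G were higher (8.18% of all genes) and none was lower (6.88%). In FeEV vs. Co 3 were above 0 and 6 below, with a median of -0.022, and in FoEV vs. FeEV 6 were above 0 and 3 below, with a median of 0.021.

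Of 46 other genes of translation and its control (release and recycling factors, poly(A)-binding proteins, mTOR and its kinases, eIF2 phosphatase subunits and enzymes of hypusine and diphthamide synthesis), 45 were in the filtered table. In FoEV vs. Co 3 were higher and 4 lower at an unadjusted p under 0.05 (8.18% and 6.88% of all genes), and 0 had an adjusted p under 0.05. The genes named here were picked after their values were seen. BZW1, an eIF5-mimic protein, was at 467 ± 27.7 CPM in Co, 419 ± 38.5 CPM in FeEV and 381 ± 28.1 CPM in FoEV (log2 fold change -0.29 ± 0.083 in FoEV vs. Co). PPP1R15A (GADD34), which directs the phosphatase to eIF2, was at 27.3 ± 8.18 CPM in Co, 17.1 ± 3.24 CPM in FeEV and 19.3 ± 3.25 CPM in FoEV, and was lower both in FoEV vs. Co (log2 fold change -0.50 ± 0.19) and in FeEV vs. Co (log2 fold change -0.66 ± 0.20). Both comparisons share the Co libraries, which spread from 17.5 to 39.0 CPM and overlapped both vesicle treatments, and neither passed the adjusted threshold. ATF4, the transcription factor translated when eIF2 is phosphorylated, was at 209.6 ± 21.2 CPM in Co, 251 ± 13.8 CPM in FeEV and 262 ± 80.3 CPM in FoEV (log2 fold change 0.32 ± 0.15 in FoEV vs. Co). The other called genes in FoEV vs. Co were DOHH and PELO, both higher, and HBS1L, the partner of PELO in ribosome rescue, and NCBP1, a nuclear cap-binding protein, both lower. NCBP1 was also lower in FoEV than in FeEV (log2 fold change -0.27 ± 0.10), and MCTS1, which acts in recycling and reinitiation, was higher (log2 fold change 0.53 ± 0.22). They were the 1 lower and 1 higher gene of the 45 at the unadjusted threshold there (3.69% and 4.83% of all genes). In FeEV vs. Co, 1 was lower (2.32% of all genes), PPP1R15A, and 0 were higher (1.83%). At the adjusted threshold, 0 of all genes were called in either comparison.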

How the data were processed

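Total RNA of 15 pools of bovine blastocysts (5 per treatment) was sequenced by the authors as low-input libraries, mapped to bovine assembly ARS-UCD1.2 and counted per gene. The submitters' processing notes list Trim Galore 0.4.3.1, HISAT2 2.1.0 and featureCounts 1.6.3, while the methods of the study name the counting function of QuasR. The deposited counts are raw, for 34773 genes and for the 10832 genes the authors kept after filtering. The test, the TMM scaling and the thinning used the latter. Library totals, shares of reads, marker sums and levels of genes outside the filtered table were taken relative to or from the former. Symbols came from the RefSeq table of assembly ARS-UCD2.0, a different build, which matched 10709 of 10832 identifiers, so no coordinates are given. METTL13 is named EEF1AKNMT in the gene lists of the study. EIF1AY was not analysed here.

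Differences were tested by quasi-likelihood in edgeR 4.0.16 after TMM scaling (estimateDisp, robust glmQLFit, glmQLFTest, treatment as the only factor, all 15 libraries, R 4.3.3), with Benjamini-Hochberg adjustment over 10832 genes. The common biological coefficient of variation was 0.159. The standard error is the log2 fold change divided by the square root of F. Members were named with a test where their unadjusted p was under 0.05. Beside them, major factors and the highest and lowest genes of a complex were named with levels, and EIF1, EIF4EBP1, EIF2AK2 and further members were added after their values were seen. Other translation genes were to be named at a p under 0.001, which none reached. The members, complexes, gene lists and markers were chosen with earlier results of these data known. Alternatives were a likelihood ratio test on robust dispersions (the approach named in the methods of the study), DESeq2 1.42.0, its size factors in edgeR, other filters, thinned counts, replicate blocks, fits of the compared groups alone and each library left out. The edgeR test was tested on simulated data for FoEV vs. Co over 10832 genes, with 200 genes changed by 1 on the log2 scale, and recovered 75.5% of them with 3.82% false calls. This change is larger than that of any member in FoEV vs. Co (0.78 for EEF2KMT, the largest). Recovery of changes as small as those of the members was not tested. Figures used Python 3.11.15 and matplotlib 3.10.9.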

Additional observations from a re-analysis of the deposited data

Results flagged for a closer look

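5 values stood apart from the other 4 libraries of their treatment by Dixon's test at the 95% level, among 99 groups of 5 libraries tested, and chance flags about 1 in 20 groups. EIF2AK3 was at 29.7 CPM in Co replicate 2, below the 41.3 to 44.1 CPM of the other Co libraries. EIF3I was at 79.1 CPM in Co replicate 1, above 58.4 to 64.2 CPM in the others. EIF5 was at 638 CPM in Co replicate 3, above 580.3 to 596 CPM. In FoEV, EIF4G1 was at 683 CPM in replicate 4, above 589.5 to 603 CPM, and EIF6 was at 51.4 CPM in replicate 1, above 36.1 to 40.4 CPM.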

How the results depend on the processing

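Over 20 called gene differences and 19 alternatives each, 307 of 380 values kept an unadjusted p under 0.05, 73 did not, and 0 reversed. EIF2AK3, EIF4E, EEF2KMT, EIF3G and EIF4G1 in FoEV vs. Co stayed under 0.05 in all 19. The number of members at an adjusted p under 0.05 in FoEV vs. Co was 2 (EIF2AK3 and EEF2KMT) with robust dispersion and a likelihood ratio test. There 2.87% of all genes were called, and the test on simulated data gave 19.7% false calls. DESeq2 called 1 member (EIF4E, adjusted p = 0.0437) and 1.33% of all genes. Without a filter, 1 member (EIF2AK3) and 0.679% of the 25470 genes tested were called. The edgeR test called 0 members. Robust dispersion with a likelihood ratio is the approach named in the methods of the study. The study lists EIF2AK3 among genes lower, and EEF2KMT among genes higher, in FoEV than in Co. Leaving out each library in turn gave 7 to 11 higher and 3 to 9 lower members in FoEV vs. Co, with 3 lower without Co replicate 2, 4 lower without Co replicate 3, 7 higher without FoEV replicate 1, and 7 higher and 3 lower without FoEV replicate 4. The same gave 0 to 2 higher and 0 to 1 lower in FeEV vs. Co, 0 to 5 higher and 0 to 2 lower in FoEV vs. FeEV, and 0 to 0 adjusted calls throughout. Shares of all genes were not computed for the fits with a library left out. In FoEV vs. FeEV there were 4 higher members with robust dispersion, and 3 higher and 2 lower without a filter. Of all genes, 11% and 7.9% were called there in either direction. Thinned counts gave 2 higher and 0 lower (8.35% of all genes), and the fit of the 2 treatments alone gave 3 higher (8.33%). In FeEV vs. Co robust dispersion gave 1 higher member (EIF3G), where 6.13% of all genes were called in either direction. The cause of these moves was not tested. Of 585 values of complex sums, 4 moved by more than 1 SD.

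Samples of the same number in the sample title were not shown to be paired. The correlation of their deviations averaged 0.03 between FoEV and Co (1 of 5 pairs over 0.1), 0.14 between FeEV and Co (3 of 5) and 0.19 between FoEV and FeEV (3 of 5). Of these pairs, 1, 2 and 2 of 5 correlated best with their own title number. The number of the sample description runs differently, and no FoEV and Co libraries of the same title number share it. Correlations between libraries of the same description number were not computed, so this check cannot decide on pairing by that number. With the number of the sample title as a replicate block, 11 members were higher and 7 lower in FoEV vs. Co, the counts of the fit without it, and 1 was higher in FeEV vs. Co (EIF3G). Of all genes, 17.6% and 5.35% were called in these comparisons in either direction. With the number of the sample description as a replicate block, 8 were higher and 5 lower in FoEV vs. Co, 2 were higher in FeEV vs. Co (EIF3G and EIF4G1), and 0 were higher and 0 lower in FoEV vs. FeEV. Of all genes, the block by description number called 14.6%, 5.12% and 6.28% in these comparisons in either direction. This block lost EIF3K, EIF6, EIF4G2, EIF4A2, EIF4A3 and EIF2D in FoEV vs. Co, and EIF4E and EEF2KMT (log2 fold change 0.36) in FoEV vs. FeEV.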
